A study of Mus musculus with 2 samples.

Results

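The miR-200 family, Mir203 and Mir205 are 7 microRNA (miRNA) genes known from epithelium and surface ectoderm, and they were measured here in embryonic mouse forebrain. They were chosen by name, as the gene rows of the deposited count tables whose Ensembl identifiers carry these 7 symbols in GENCODE, and all 7 had a row among 1973 miRNA genes. MicroRNA-seq, which reads RNA of the length of mature miRNAs, was made from 2 biological replicates of a single group. That group was healthy forebrain of B6NCrl mouse embryos at embryonic day 11.5 (E11.5), with males and females pooled, and it included no treated, mutant or control group. Replicate 1 was a pool of 109 embryos and replicate 2 a pool of 88, and the labels give both the same donor entry. The comparisons are therefore between the 7 genes, between the miR-200 clusters and between the replicate libraries.

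The miR-200 family is made from a pair of clustered transcripts, and its best known targets are the messenger RNAs of Zeb1 and Zeb2, repressors of E-cadherin and other epithelial genes. The ZEB proteins in turn repress both miR-200 clusters, so that cells with high miR-200 tend to keep epithelial junctions. In mouse skin, miR-203 is known to repress the epidermal progenitor factor p63, and miR-205 is known from basal cells of stratified epithelia. In the embryonic head, such miRNAs are known from surface ectoderm and olfactory epithelium. Target choice rests on the seed, bases 2 to 8 of the mature miRNA.

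The 5 family members carry 2 seeds that cross the clusters, and their mature 3p arms are shown because hairpins are also grouped by seed below. Sequences are from RefSeq on GRCm38.p6, where all 7 genes matched, and are written 5′ to 3′ with the seed in capitals.
miR-200b-3p: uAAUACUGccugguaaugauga
miR-429-3p: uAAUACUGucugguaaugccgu
miR-200c-3p: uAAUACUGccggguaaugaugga
miR-200a-3p: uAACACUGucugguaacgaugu
miR-141-3p: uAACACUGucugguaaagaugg
Mir200b, Mir429 and Mir200c share the seed AAUACUG, while Mir200a and Mir141 share AACACUG. Counted from the 5′ end of miR-200b-3p, the seeds differ by U4C. The arms were compared over 22 bases from the 5′ end, and miR-200c-3p has 23. Outside the seed, miR-200c-3p differs from miR-200b-3p by U11G and A22G, and miR-141-3p differs from miR-200a-3p by C17A and U22G. The RefSeq table holds 1738 mature sequences, and 0 of those from other genes had the seed of any arm of the 7 genes.

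The arms by which Mir203 and Mir205 are best known have seeds of their own.
miR-203-3p: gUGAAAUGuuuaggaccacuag
miR-205-5p: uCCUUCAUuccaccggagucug
Each gene row counts reads over the whole hairpin, so 5p and 3p arms are not separated in the levels. On the 5p side, miR-200a-5p and miR-200b-5p share the seed AUCUUAC, although their 3p arms have different seeds.
miR-200a-5p: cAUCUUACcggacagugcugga
miR-200b-5p: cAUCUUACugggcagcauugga

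All positions are in the mouse build mm10, with annotation from GENCODE M21. Mir200b (ENSMUSG00000065549, chromosome 4, 156055681 to 156055750), Mir200a (ENSMUSG00000065400, 156054896 to 156054985) and Mir429 (ENSMUSG00000065427, 156053905 to 156053987) lie in this order of transcription on the minus strand and span 1846 bases. All of them lie in introns of Ttll10, whose protein is of the tubulin tyrosine ligase-like family. They also overlap the noncoding gene Gm13648, with Mir429 in an exon and Mir200a and Mir200b in introns. Mir200c (ENSMUSG00000065462, chromosome 6, 124718322 to 124718390) and Mir141 (ENSMUSG00000065474, 124717914 to 124717985) stand 336 bases apart on the minus strand, in an intron of the noncoding gene Gm15884, and 31 bases of the Mir141 hairpin overlap an exon of Gm29008. Mir203 (ENSMUSG00000065574, chromosome 12, 112130880 to 112130955, plus strand) overlaps no other gene of the annotation and begins 3320 bases after the end of Aspg. Mir205 (ENSMUSG00000065533, chromosome 1, 193507463 to 193507530, minus strand) lies wholly in an exon of the noncoding gene 4631405K08Rik, which RefSeq names Mir205hg.

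Replicate 1 held 1281201 and replicate 2 held 1297647 sense-strand counts on miRNA genes, out of 3955893 and 3428269 reads. Levels are given as CPM, the sense counts of a gene divided by the sense total of its library and multiplied by 1e+06, with SD over n = 2 replicates. A read spans a whole mature miRNA, so CPM was not divided by hairpin length. A list of 13 neural miRNA genes with a row summed to 60512 and 56170 CPM in replicates 1 and 2. Its median was 523 and 435 CPM. The 6 Hox cluster genes, known from hindbrain and trunk, summed to 209.96 and 84.0 CPM. Both lists were chosen with earlier results of these data known, so their sums do not test the labelled tissue. Most of the neural sum came from Mir92b, Mir149, Mir181d and Mir181c, at 17079, 14979, 11394 and 9644 CPM in the mean. Mir137, Mir153, Mir128-1 and Mir128-2 had 2536, 1939, 189 and 68.3 CPM. Mir9-2 and the Mir124a genes, which have near copies, had 1.56 to 20.5 CPM, while Mir9-3, another copy of Mir9, had 479 CPM. In bulk tissue, fewer cells of a type and less RNA per cell cannot be told apart.

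Every one of the 7 genes was detected in both libraries. Of all 1973 miRNA genes, 612 had a count in replicate 1 and 604 in replicate 2. Together the 7 genes held 0.830% of the counts of replicate 1, with a 95% Wilson interval of 0.814 to 0.846%. In replicate 2 they held 0.776%, with an interval of 0.761 to 0.791%. The miR-200 family accounted for 51.0% and 47.8% of these counts, and Mir203 with Mir205 for the rest. From the highest to the lowest of them, Mir203 was 19.0 ± 1.31 times as high as Mir200a. By mean level the genes ranked from 70 (Mir203) to 218 (Mir200a) among the 1973 miRNA genes, of which Mir335 was the highest at 92176 ± 6810 CPM.

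**Figure D1:**
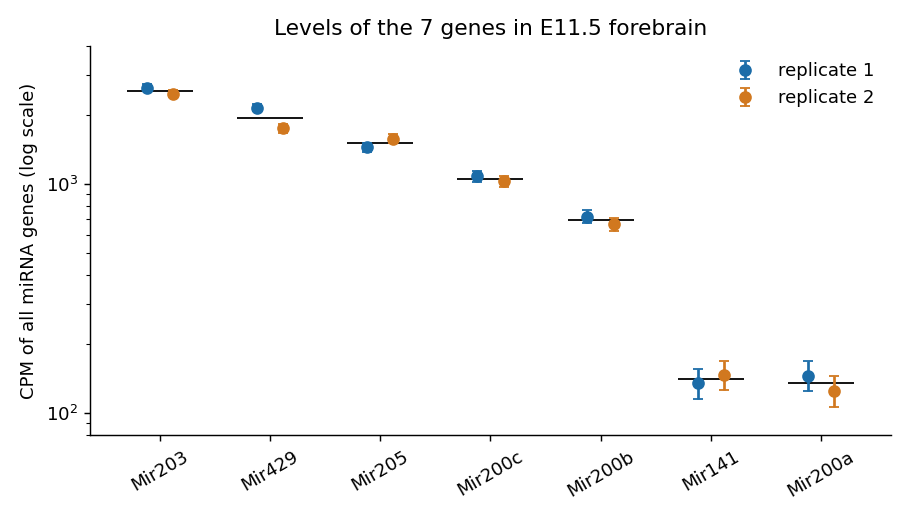
CPM of each gene on a log axis in replicate 1 and replicate 2, with exact 95% Poisson intervals of the counts as bars and the mean as a horizontal line. The genes fall into a group of 5 at 664 CPM or more and a pair, Mir141 and Mir200a, between 124 and 146 CPM.

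Mir203, the epidermal miRNA, was the most abundant of the 7, with 2629 and 2477 CPM in replicates 1 and 2 (3368 and 3214 counts). Mir205 had 1441 and 1575 CPM (1846 and 2044 counts). Mir203 thus stood 1.70 ± 0.178 times as high as Mir205, with ratios of 1.82 in replicate 1 (95% Clopper-Pearson interval 1.72 to 1.93) and 1.57 in replicate 2 (1.49 to 1.66). Such intervals hold only the error of counting and treat each read as a separate draw, although PCR copies of a molecule are read as well.

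Within the chromosome 4 cluster, the last hairpin of the transcript was the highest. Mir429 had 2150 and 1744 CPM in replicates 1 and 2 (2754 and 2263 counts). Mir200b, the first hairpin, had 720 and 664 CPM (922 and 862 counts), and Mir200a, between them, had 145 and 124 CPM (186 and 161 counts). The ranges of the 3 hairpins did not overlap over the libraries. Mir429 exceeded Mir200b by 2.81 ± 0.256 times and Mir200a by 14.4 ± 0.531 times, and Mir200b exceeded Mir200a by 5.16 ± 0.281 times. Mir429 held 71.3% and 68.9% of the counts of its cluster, Mir200b 23.9% and 26.2%, and Mir200a 4.82% and 4.90%.

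In the chromosome 6 cluster, the first hairpin was the higher. Mir200c had 1079 and 1026 CPM in replicates 1 and 2 (1382 and 1332 counts), and Mir141 had 134 and 146 CPM (172 and 189 counts). Mir200c made up 88.9% and 87.6% of the counts of this cluster. The ratio of Mir200c to Mir141 was 8.03 in replicate 1 (6.85 to 9.47) and 7.05 in replicate 2 (6.05 to 8.25).

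**Figure D2:**
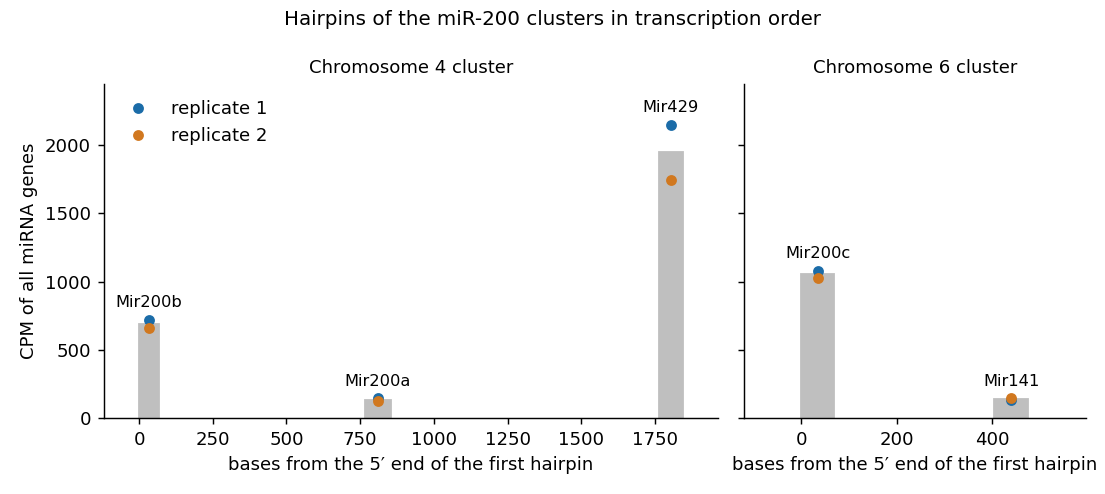
CPM of the miR-200 hairpins (linear axis) against distance in bases from the 5′ end of the first hairpin of each cluster, in the direction of transcription. Grey bars give the mean with the width of the hairpin and points the replicates: Mir429 stands above the others, and Mir200a and Mir141 lie at 146 CPM or less.

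Set against each other, the chromosome 4 cluster summed to 3014 and 2532 CPM in replicates 1 and 2, and the chromosome 6 cluster to 1213 and 1172 CPM. The chromosome 4 cluster was 2.49 times as high in replicate 1 (2.34 to 2.64) and 2.16 times in replicate 2 (2.03 to 2.30), a mean log2 ratio of 1.21 ± 0.14. Both intervals lie above 1, and the ratio exceeded the difference between the replicates. With 2 replicates the smallest two-sided exact sign-flip p is 0.5, so the difference was given no p. This direction rested on Mir429. Without Mir429, Mir200b and Mir200a summed to 0.713 (0.660 to 0.771) and 0.673 (0.621 to 0.729) times the chromosome 6 cluster, a log2 ratio of -0.53 ± 0.06. Per hairpin the cluster means differed by a log2 ratio of 0.63 and the medians by 0.21.

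Hairpins of the same seed were set side by side across the clusters. Mir429 was 1.85 ± 0.208 times as high as Mir200c, and Mir200b was 0.657 ± 0.0141 times as high as Mir200c, so the AAUACUG members of chromosome 4 lay on either side of their chromosome 6 partner. For the AACACUG pair, the ratio of Mir200a to Mir141 was 1.08 in replicate 1 (0.874 to 1.34) and 0.852 in replicate 2 (0.686 to 1.06). Mir200a and Mir141 could not be told apart at this depth, and their order differed between the replicates.

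The ratio between the seeds was larger than the ratio between the clusters in both libraries. Members with AAUACUG, the seed of Mir200b, Mir429 and Mir200c, summed to 3948 and 3435 CPM in replicates 1 and 2, and those with AACACUG, of Mir200a and Mir141, to 279 and 270 CPM. The AAUACUG group was 14.1 times as high in replicate 1 (12.7 to 15.8) and 12.7 times in replicate 2 (11.4 to 14.2), and it held 93.4% and 92.7% of the counts of the family. The direction was the same within each cluster. On chromosome 4, Mir200b and Mir429 together were 19.6 ± 0.25 times Mir200a, and on chromosome 6, Mir200c was 7.54 ± 0.698 times Mir141.

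**Figure D3:**
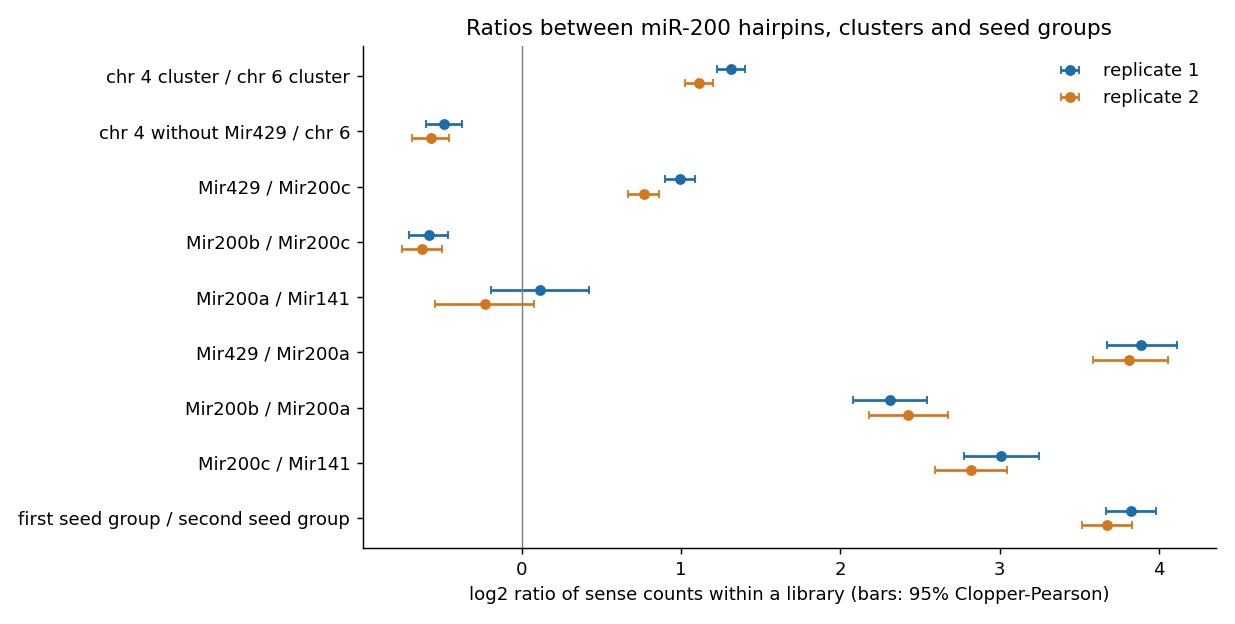
Log2 ratios of sense counts within a library, in replicate 1 and replicate 2, with 95% Clopper-Pearson intervals; the first seed group is Mir200b, Mir200c and Mir429 and the second Mir200a and Mir141. The cluster ratio lies above 0 with Mir429 and below 0 without it, the Mir200a to Mir141 ratio spans 0, and the seed ratio has a mean of 3.75.

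The lower pair of hairpins also had the longest stretch in common. Mir200a and Mir141 share 17 bases in a row, and Mir200b and Mir200c share 14. No hairpin of the 7 genes shares 20 bases with any of 2201 other miRNA hairpins of GENCODE M21. The RefSeq miRNA Mir203b, opposite Mir203, was not among these. Reads that map to several places are not in the gene counts, and they were 41.7% and 39.1% of the mapped reads of replicates 1 and 2. The part of this loss in the low counts of Mir200a and Mir141 was not tested.

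Ordered by mean level, the genes ran Mir203, Mir429, Mir205, Mir200c, Mir200b, Mir141 and Mir200a. This order came from the same libraries, so the direction of each mean difference between neighbours was set by the sorting. Of the 6 neighbouring pairs in this order, 5 stood apart in both replicates, with intervals that excluded equality and a mean log2 ratio larger than its SD. The exception was Mir141 and Mir200a, at a log2 ratio of 0.06 ± 0.24. The narrowest of the others was Mir429 over Mir205, with ratios of 1.49 and 1.11 in replicates 1 and 2 and a log2 ratio of 0.36 ± 0.30, and on counts per 100 bases of hairpin this pair was not apart. The largest step was Mir200b over Mir141, at 4.96 ± 0.565 times.

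Between the replicate libraries, the levels of the 7 genes differed by at most 1.23-fold. A two-sided exact binomial test with Benjamini-Hochberg adjustment over 398 genes with 10 counts or more compared these 2 libraries and covered counting error only. Of all genes tested, 28.4% passed an adjusted p of 0.05, 20.6% higher and 7.79% lower in replicate 1, and 2.76% passed with a 2-fold minimum. Of the 7 genes, 2 passed, 1 in each direction, a share of the same order as the background, and 0 passed with the 2-fold minimum, while 3 had an unadjusted p under 0.05, as did 35.4% of all genes tested. The edgeR exact test, with a biological coefficient of variation of 10.3% estimated from the same libraries, called 0 of the 7 and 8 of the 398 genes (2.01%) at an adjusted p of 0.05 with no fold minimum.

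Mir429 was higher in replicate 1 by 0.30 on the log2 scale, with a 95% Clopper-Pearson interval of 0.22 to 0.38. Its adjusted p was 1.90e-12 by the exact binomial test, which covered counting error only. Mir205 was lower in replicate 1, at -0.13 (-0.22 to -0.04) with an adjusted p of 0.0218 by the exact binomial test. Mir203 stood at 0.09 (0.02 to 0.16) with an adjusted p of 0.0540 in the same exact binomial test. The intervals of Mir200a, Mir200b, Mir200c and Mir141 included 0. The median log2 ratio was 0.09 for the 7 genes and 0.07 for all genes tested. In CPM, replicate 1 minus replicate 2 was 482 for the chromosome 4 cluster and 40.8 for the chromosome 6 cluster.

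**Figure D4:**
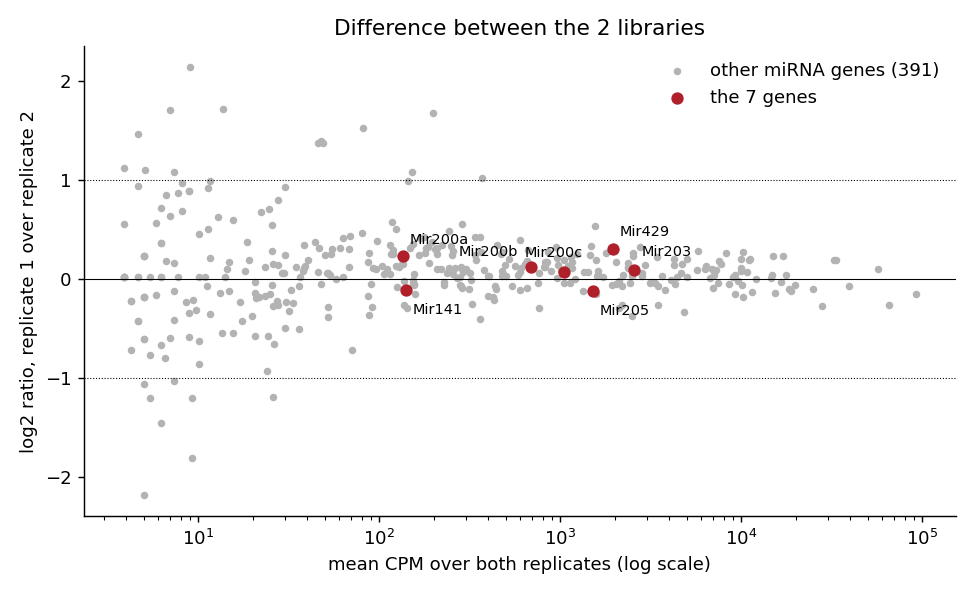
Log2 ratio of replicate 1 over replicate 2 against mean CPM (log axis) for the genes tested, with the 7 genes in red and dotted lines at 2-fold. The 7 genes lie between -0.13 and 0.30, with a median absolute log2 ratio of 0.12 against 0.18 for all genes tested, at any level.

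The 7 genes summed to 8297 and 7756 CPM in replicates 1 and 2, and this sum was set beside lists for other cell types, without a test. The sum was lower than that of neural miRNAs by a log2 ratio of -2.86 ± 0.0072, than that of Mir126a of blood vessel endothelium by -2.01 ± 0.07 and than that of 8 mesenchyme genes by -1.51 ± 0.03. It was higher than the sensory ectoderm cluster of Mir183, Mir182 and Mir96 by 1.18 ± 0.10, than 4 leukocyte genes by 3.33 ± 0.09, than 3 erythroid genes by 4.08 ± 0.43, than 8 striated muscle genes by 5.45 ± 0.58 and than the Hox cluster genes by 5.92 ± 0.87. Lists differ in length and content. When list medians, with 1 CPM added, replaced the sums, the log2 ratio was 1.14 to the neural list and -0.44 to the sensory ectoderm cluster, which turns both directions. The same change took it to -4.94 for Mir126a, a list of 1 gene, and to 8.28 for striated muscle. The neural list includes the multicopy genes Mir9 and Mir124a, whose reads can fit several places. The striated muscle, Hox cluster and mesenchyme lists also include numbered copies of the same miRNA, as does the neural list with Mir128-1 and Mir128-2. Of the 8 striated muscle genes, 4 had 0 counts in both libraries, as did 1 of the 6 Hox cluster genes. How far lost reads of such copies lower these lists was not tested.

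**Figure D5:**
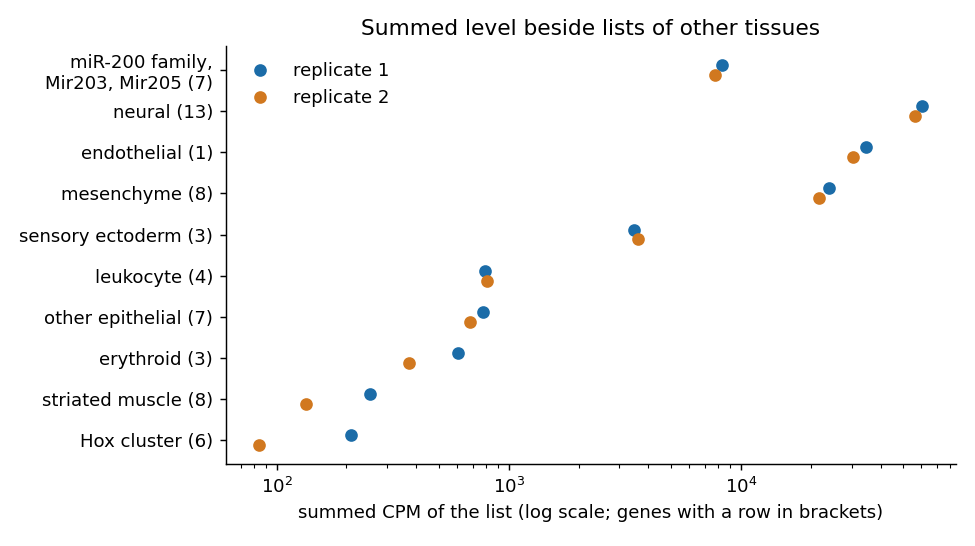
Summed CPM (log axis) of the 7 genes, at the top, and of each comparison list, in replicate 1 and replicate 2, with the number of genes in brackets. The 7 genes lie below the neural, endothelial and mesenchyme lists and above the others in both replicates.

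A list of other miRNAs known from epithelium or its derivatives had a lower sum. Of 7 such genes with a row, 4 had more than 3 counts in both libraries, and the sum of all 7, 774 and 680 CPM, stood below that of the 7 genes by a log2 ratio of 3.47 ± 0.06. Mir31 of keratinocytes had 297 and 284 CPM, Mir375 of pancreatic islets and pituitary 276 and 220 CPM, and the gut and liver genes Mir194-2 and Mir192 had 95.8 ± 4.70 and 87.3 ± 11.2 CPM. Mir194-1 and Mir215 had 2 counts and 1 count in each library, and Mir194-1 and Mir194-2 are numbered copies of the same miRNA. Mir184, known from the corneal epithelium, had 5 counts in replicate 1 and 1 count in replicate 2. Mir31 and Mir375 thus lay above Mir141 and Mir200a and below the other 5 of the 7 genes in both replicates. In the sensory ectoderm cluster, Mir182, Mir183 and Mir96 had 1567, 1426 and 540 CPM in the mean. Mir182 and Mir183 lay above Mir200c in both replicates, and Mir96 lay between Mir200b and Mir141.

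The genes nearest in level to each of the 7 were found over both replicates as the smallest distance in log2(CPM + 1). Mir203 lay nearest to Mirlet7d and Mir1193, Mir429 to Mir425 and Mir374b, and Mir205 to Mir182 and Mir494. For Mir200c these were Mir98 and Mir665, for Mir200b Mir125b-2 and Mir1251, for Mir141 Mir669c and Mir488, and for Mir200a Mir1981 and Mirlet7b. The distances ran from 0.0173 (Mir200b and Mir125b-2) to 0.174 (Mir429 and Mir374b), over only 2 libraries. Mir125b-2 and Mir669c belong to families with near-identical mature copies, so their levels are uncertain. Whether others of these nearest genes, such as Mirlet7d, Mir98 and Mirlet7b, are affected in the same way was not examined.

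Reads on the strand opposite to the gene were found at Mir203 alone among the 7. The hairpin is shown because an annotated miRNA lies opposite both of its arms, with the arms miR-203-5p and miR-203-3p in capitals.
Mir203 hairpin: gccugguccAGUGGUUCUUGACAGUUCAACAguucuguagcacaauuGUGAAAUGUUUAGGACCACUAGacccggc
On the minus strand of the same place RefSeq annotates Mir203b, with these mature arms and their seeds in capitals.
miR-203b-3p: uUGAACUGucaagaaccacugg
miR-203b-5p: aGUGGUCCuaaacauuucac
The opposite strand held 32 of the reads at Mir203 in replicate 1 and 29 in replicate 2, or 0.941% (95% Wilson interval 0.667 to 1.33%) and 0.894% (0.623 to 1.28%). These counts are not part of the Mir203 level. The other 6 genes had 0 counts on the opposite strand in both libraries, which allows up to 3 counts, or 2.34 and 2.31 CPM in replicates 1 and 2.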

How the data were processed

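Each deposited file holds raw counts per miRNA gene in 3 columns (both strands, sense and opposite strand), aligned to mm10 with annotation M4 per the text files deposited with them; which aligner and counter made them is not stated there or in the labels. The 4 rows that name no gene (unmapped, multimapping, no feature, ambiguous) were left out of totals. Unmapped reads numbered 1160316 and 868859 in replicates 1 and 2, and multimapping reads 1165381 and 1001079. Sense counts, 96.4% and 96.8% of the gene counts, were scaled to CPM. Of 1973 identifiers, 1894 have a symbol in GENCODE M21. The identifiers of Mir200b and Mir200c carry an older version number in the counts, so their counted bounds may differ from those given. Capture of each miRNA in the library was not measured and can affect levels between genes.

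No conditions exist, so no quasi-likelihood fit between groups was possible. The libraries were compared by exact binomial tests, with 0.5 counts added for the log2 ratio, and p-values measure the libraries alone. Differences between the libraries are part of the dispersion estimated for the edgeR exact test, so a gene of typical difference is unlikely to pass it. Pairs were called apart if both 95% intervals excluded equality and the mean log2 ratio exceeded its SD. Alternatives covered scaling (TMM, DESeq2), strand, filters, length, left-out hairpins and replicates. The genes named are the 7, the other epithelial and sensory lists, the 2 nearest genes to each and the highest gene. Mir126a and the neural genes of the comparison lists were named beside these, after their values were seen. Members and lists were chosen with earlier results of these data known. Software was Python 3.11.15, pandas 2.3.3, numpy 2.4.6, scipy 1.17.1, R 4.3.3, edgeR 4.0.16 and DESeq2 1.42.0.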

Additional observations from a re-analysis of the deposited data

Results flagged for a closer look

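Opposite-strand reads at Mir203 lie outside the sense counts that the levels rest on, and they exceeded the limit of 3 counts in both libraries, with 32 in replicate 1 and 29 in replicate 2. They correspond to 25.0 and 22.3 CPM of the sense total. Over all miRNA genes the opposite strand held 3.61% and 3.22% of the gene counts, and 18 of 278 genes with 100 counts or more had opposite-strand counts above this limit in both libraries.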

How the results depend on the processing

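The summed level of the 7 genes, 8027 CPM, became 3867 with all mapped reads as the total, 13624 without the 10 most abundant genes and 10780 per 100 bases of hairpin; it ran from 7756 to 8297 over single replicates. The log2 ratio of the chromosome 4 to the chromosome 6 cluster, 1.21, turned to -0.53 without Mir429. It became 0.63 for the mean and 0.21 for the median per hairpin, 1.01 per 100 bases, 0.80 without Mir200b, 4.30 without Mir200c and 1.39 without Mir141. The seed ratio, 3.75, became 3.16 per hairpin, and 3.45, 3.26, 2.67, 4.72 and 4.78 without Mir200b, Mir200c, Mir429, Mir200a and Mir141. Of the 7 genes, the 2 called between the libraries became 0 in the edgeR exact test at the estimated dispersion and 0 at a coefficient of variation of 0.2; by the same rule, with no fold minimum, 113 of 398 genes became 8 and 0. With the 2-fold minimum, 11 calls over all genes became 113 without the fold minimum, 7 with a filter of 100 counts, 7 in the edgeR exact test at the estimated dispersion and 0 at 0.2, where 13 genes had an unadjusted p under 0.05. With TMM scaling the Mir200c log2 ratio between replicates was -6.49e-05. With the median member plus 1 CPM, the log2 ratio of the 7 genes to each list was 1.14 (neural), -4.94 (endothelial), -1.11 (mesenchyme), 3.53 (erythroid), 2.47 (leukocyte), 6.81 (Hox cluster), 8.28 (striated muscle), -0.44 (sensory ectoderm) and 3.58 (other epithelial); the cause was not tested. No paired analysis was possible because the series has a single group. Counting error limits Mir200a and Mir141 most.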
